A study of Mus musculus with 6 samples.

Results

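The cell division genes are 40 genes whose RNA accumulates in proliferating cells: 25 act mainly in mitosis, 9 form the DNA replication machinery of S phase (the Mcm helicase subunits, Pcna and the Rrm subunits of ribonucleotide reductase), and 6 are other genes of the G1 to S transition. They were chosen by name, and each was read from the brightest probe set that names that gene alone, meaning the set with the highest mean log2 intensity over the 6 arrays. Of the 40 genes, 39 had such a probe set (24 mitotic, 9 S-phase and 6 other G1/S genes), among 12393 genes in all. Ccnb1, a mitotic cyclin, had none and was not analysed here.

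The study profiled RNA of whole eyeballs from newborn mice of a mixed background at postnatal day 1, with 1 array for each of 3 Brg1 cKO and 3 wild-type eyeballs. Brg1 is the product of Smarca4 and powers SWI/SNF complexes, which move nucleosomes. The Brg1 cKO mice carried homozygous floxed Brg1 alleles and the Le-Cre transgene, driven by a Pax6 ectoderm enhancer, which acts in ectoderm of the head surface, the source of lens, cornea and eyelid epidermis. The labels call the control group wild type, and the study describes controls with floxed alleles and no Cre without naming these arrays. No array carried Le-Cre alone, so the Cre transgene and the loss of Brg1 cannot be told apart, and the study found the deletion to be incomplete in many embryos. The retina, which holds many dividing cells at birth, lies outside the ectoderm in which this Cre acts. The study nonetheless described a thicker neural retina in mutant embryos and misfolded retinas after birth, and held Brg1 to be indirectly required there. Most mutants also had small eyes, lenses were reduced in size, and a few mutants had no lens. How far the eyeballs on these arrays were affected was not given. The study also saw germline deletion of Brg1 on occasion, and whether it occurred in these eyeballs was not tested.

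A dividing cell copies its DNA in S phase and separates the copies in mitosis. Transcription of the replication genes is switched on by E2F factors when Rb proteins release them, and the mitotic genes are switched on later, in G2, through promoters with CHR and CCAAT elements that bind the DREAM, MuvB and NF-Y complexes. In the newborn mouse eye, division goes on in retinal progenitors, in the front epithelium of the lens, in the basal layer of the ocular surface, and in vessels and mesenchyme. The comparison asks whether the RNA of these genes in the whole eye differed between genotypes.

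The promoters show how the mitotic and the replication genes differ in sequence. RefSeq promoter windows (build GRCm38.p6, 250 bases before to 50 after the start site) were at hand for 33 of the 40 genes. The last 150 bases before the start site are printed 5′ to 3′ on the strand of the gene for 4 of them: Cdk1 and Ube2c as mitotic genes whose groups did not overlap, Mcm6 as a replication gene rich in E2F words, and Rrm2 as the S-phase gene with the lowest p. Capitals mark CHR words (TTTGAA and TTCGAA), the CCAAT word and E2F words (TTTCCCGC, TTTCGCGC, TTTGCCGC and TTTGGCGC), each searched on both strands.
Cdk1 (chr10:69352913-69353062, minus strand): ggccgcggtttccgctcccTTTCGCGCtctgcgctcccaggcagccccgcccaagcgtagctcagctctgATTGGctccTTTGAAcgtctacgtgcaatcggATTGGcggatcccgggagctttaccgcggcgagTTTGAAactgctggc
Ube2c (chr2:164769779-164769928, plus strand): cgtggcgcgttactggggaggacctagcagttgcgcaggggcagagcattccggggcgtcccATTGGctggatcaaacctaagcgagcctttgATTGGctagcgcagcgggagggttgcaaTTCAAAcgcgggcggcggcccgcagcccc
Mcm6 (chr1:128359706-128359855, minus strand): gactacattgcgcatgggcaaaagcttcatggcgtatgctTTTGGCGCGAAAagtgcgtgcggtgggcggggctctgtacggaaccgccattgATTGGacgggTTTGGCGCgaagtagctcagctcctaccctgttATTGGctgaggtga
Rrm2 (chr12:24708104-24708253, plus strand): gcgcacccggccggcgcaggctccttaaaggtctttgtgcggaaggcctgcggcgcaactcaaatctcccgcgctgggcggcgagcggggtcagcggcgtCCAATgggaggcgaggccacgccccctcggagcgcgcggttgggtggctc
The Cdk1 stretch holds 2 CHR words, 2 CCAAT words and 1 E2F word, and the Ube2c stretch holds 1 CHR word and 2 CCAAT words. The Mcm6 stretch holds no CHR word but 3 E2F words, 2 of which overlap on opposite strands, and 2 CCAAT words. Rrm2 shows 1 CCAAT word and neither of the others.

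Over the full windows, a CHR word lay in 15 of 20 mitotic promoters (75%), in 2 of 8 S-phase promoters and in 0 of 5 other G1/S promoters, against 21.7% of all 27025 genes in the promoter table. All of the 15 also held a CCAAT word, a combination found in 8.61% of all genes. The mitotic genes without a CHR word were Birc5, Ccnb1, Cenpe, Mad2l1 and Nusap1. E2F words, in 2.6% of all genes, lay in 4 of 8 S-phase promoters (Mcm3, Mcm5, Mcm6 and Mcm7), in 3 of 5 other G1/S promoters (Cdc6, Cdt1 and Uhrf1) and in 1 of 20 mitotic promoters, that of Cdk1. CCAAT words were in 17 of 20 mitotic and 8 of 8 S-phase promoters, against 41.1% of all genes. Such matches describe the letters of these windows and do not show binding.

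Across the series, 115 of 22626 probe sets passed the adjusted threshold for genotype, median intensity per array was 169.1 to 185.5, and correlations between arrays were 0.957 to 0.988. Smarca4, the deleted gene, did not pass the test with either of its 2 probe sets. The brighter set ranged from 9.81 to 10.11 in the wild-type and from 9.93 to 10.35 in the Brg1 cKO eyeballs (log2 difference 0.18, SE 0.19), and the other from 8.37 to 9.21 and from 7.79 to 8.55 (log2 difference -0.70, SE 0.30). Whether either set lies in the deleted part was not tested, so the labels were not checked by this gene. Xist was at log2 4.88 in Brg1 cKO replicate 1 and at 12.30 to 12.92 in the other 5 arrays, which makes that sample male and the others female. No wild-type array was male, so the part of sex in the values of that array was not tested. With 3 arrays per group, precision is limited by their number.

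None of the cell division genes passed the test of genotype, and 37 of the 39 differed by less than 1.5-fold, all but Cenpe and Mcm2. Of the 39 genes, 0 had an adjusted p under 0.05 in limma, fitted across all 22626 probe sets, where 0.508% of probe sets did. At an unadjusted limma p under 0.05 the count was also 0, against 8.4% of all probe sets, and with a fold over 1.5 added it was 0 against 6.48%. Template matching, a correlation with genotype that the study used to select genes, gave 0 with the same fold. The adjusted p-values of the 39 genes ran from 0.665 to 0.999. The eyeballs are bulk samples, in which fewer dividing cells and less RNA per dividing cell cannot be told apart, and the p-values measure the spread among these 6 eyeballs.

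How large a difference these arrays could have missed is given by the intervals. For 36 of the 39 genes the 95% interval of the log2 difference lay within 1 log2 unit of 0, that is within a 2-fold change either way, which held for 73.3% of all genes. For 12 of the 39 it lay within a 1.5-fold change, which held for 3198 of all 12393 genes. The 3 genes whose intervals reached past 1 log2 unit were Cenpe, Aurkb and Mcm2.

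**Figure D1:**
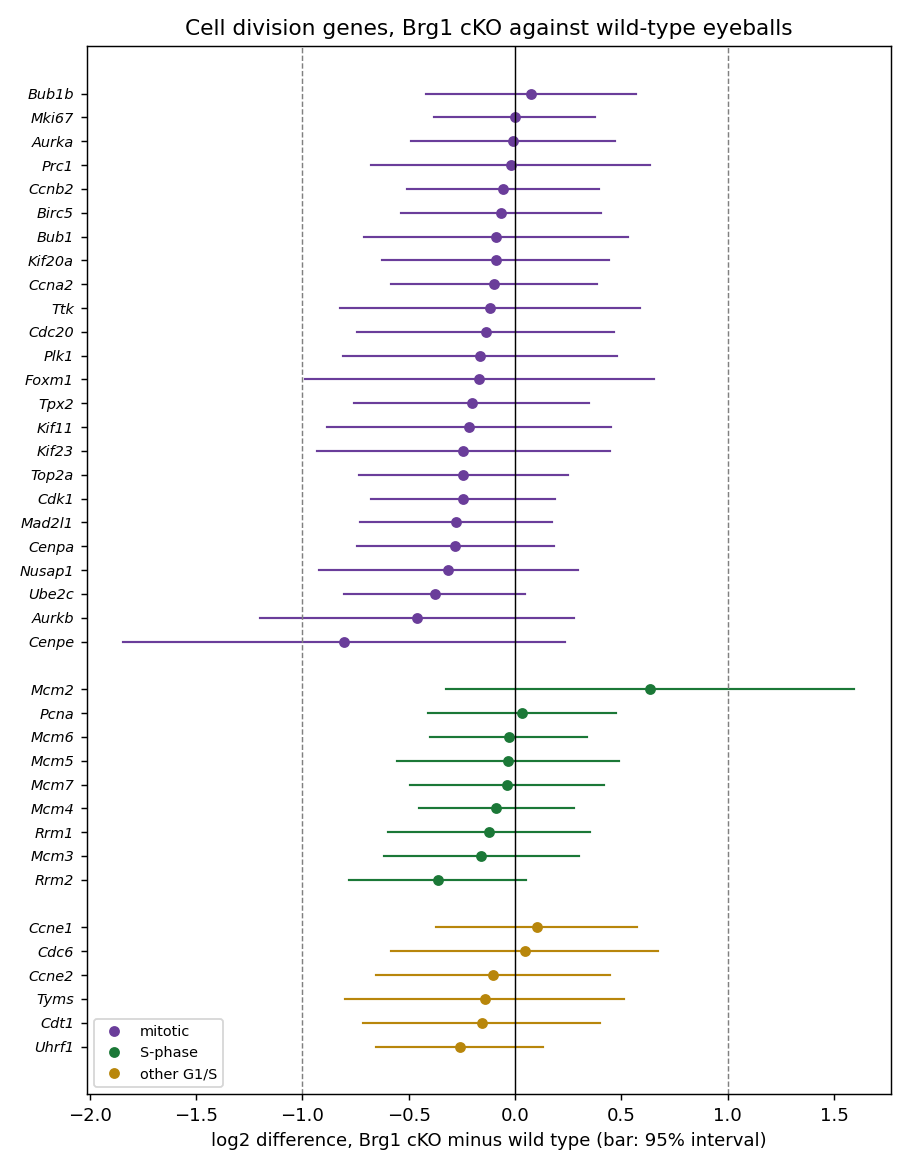
Log2 difference of each of the 39 cell division genes, Brg1 cKO minus wild type (x axis), with bars for the 95% interval of the limma model from 3 arrays per group and dashed lines at 1 log2 unit. All intervals cross 0, and those of Cenpe, Aurkb and Mcm2 reach past a dashed line.

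The signs of the differences were uneven. The mean was lower in Brg1 cKO for 34 of the 39 genes, against 47.1% of all genes, and the median log2 difference was -0.12, against 0.02 over all genes. The groups did not overlap for 5 genes, Cdk1, Ube2c, Mcm4, Rrm2 and Uhrf1, all lower in Brg1 cKO. That is a share close to the 14.8% of all genes whose groups did not overlap in either direction. By direction, 791 of all 12393 genes were lower in Brg1 cKO without overlap and 1048 were higher. The numbers of the 39 genes depended on single arrays. Without Brg1 cKO replicate 2 the mean was lower for 18 of the 39 genes and the median difference was 0.009, and without wild-type replicate 2, 24 were lower. Most of these genes were lowest of their group in Brg1 cKO replicate 2 and in wild-type replicate 3. With both of these arrays left out, 28 of the 39 were lower and the median difference was -0.09. Genes that share a cell cycle program move together within an array, so that the 39 genes are not independent observations.

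Among the mitotic genes, Mki67, which encodes the Ki-67 antigen on the surface of mitotic chromosomes and is the usual marker of dividing cells, did not separate the groups. It read 11.68, 11.70 and 11.70 in the wild-type arrays, in the order of replicates 1 to 3, and 11.85, 11.61 and 11.62 in the Brg1 cKO arrays in that order (log2 intensity, as for all values per array that follow). The wild-type values nearly coincided and fell between those of the Brg1 cKO arrays. The difference was -0.0006 on the log2 scale (SE 0.16, 95% interval -0.38 to 0.38, limma adjusted p = 0.999).

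Top2a, the topoisomerase that untangles sister chromatids, read 11.61, 11.56 and 11.31 in the wild-type arrays and 11.46, 10.91 and 11.38 in the Brg1 cKO arrays. Brg1 cKO replicate 2 was the lowest of the 6, and the other values overlapped. The log2 difference was -0.24 (SE 0.21, limma adjusted p = 0.826).

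Cdk1, the kinase that starts mitosis, read 11.13, 11.24 and 11.17 in the wild-type arrays and 11.01, 10.66 and 11.13 in the Brg1 cKO arrays. The groups did not overlap, but the highest Brg1 cKO value lay just under the lowest wild-type value, and replicate 2 was again far below the rest. The log2 difference was -0.24 (SE 0.18, 95% interval -0.68 to 0.19, limma adjusted p = 0.801).

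The smallest p of all 39 genes belonged to Ube2c, the ubiquitin-conjugating enzyme that works with the anaphase-promoting complex to destroy mitotic cyclins. It read 11.17, 11.48 and 11.25 in the wild-type arrays and 10.77, 10.88 and 11.11 in the Brg1 cKO arrays. Each Brg1 cKO value was below each wild-type value, and here replicate 1, not 2, was the lowest. The log2 difference of -0.38 (SE 0.18, 95% interval -0.80 to 0.05) is a level 1.30-fold higher in wild type, with a limma adjusted p of 0.665. The exact two-sided permutation p was 0.1, the smallest that 3 arrays against 3 can give.

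Cenpe, the kinesin that carries chromosomes to the spindle equator, had the largest difference and the widest spread. Its values were 8.68, 7.65 and 8.30 in the wild-type arrays and 7.46, 6.56 and 8.20 in the Brg1 cKO arrays. Brg1 cKO replicate 3 lay above a wild-type array, so the groups overlapped. The log2 difference was -0.80 (SE 0.44, 95% interval -1.84 to 0.24, limma adjusted p = 0.721). Leaving out Brg1 cKO replicate 2 gave -0.38, and leaving out replicate 3 gave -1.20.

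Aurkb, the kinase of the chromosomal passenger complex, turned on a single array. It read 9.77, 9.85 and 9.62 in the wild-type arrays and 9.64, 8.55 and 9.67 in the Brg1 cKO arrays. Replicates 1 and 3 of Brg1 cKO lay within the wild-type range, and replicate 2 was more than 1 log2 unit lower. The log2 difference was -0.46 (SE 0.31, 95% interval -1.20 to 0.28, limma adjusted p = 0.779), and it was -0.09 without that array.

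The log2 difference of the other mitotic genes lay between -0.31 for Nusap1, which bundles spindle microtubules, and 0.07 for Bub1b, a spindle checkpoint kinase and the only mitotic gene with a higher mean in Brg1 cKO. The checkpoint genes Bub1, Mad2l1 and Ttk differed by -0.09, -0.28 and -0.12. The mitotic kinases Plk1 and Aurka differed by -0.17 and -0.01. The spindle motors Kif11, Kif20a and Kif23 differed by -0.22, -0.09 and -0.24. The spindle proteins Prc1 and Tpx2 differed by -0.02 and -0.20. Cdc20, an activator of the anaphase-promoting complex, differed by -0.14, Birc5, a partner of Aurkb, by -0.07, and Cenpa, the centromeric histone, by -0.28. Cyclins Ccna2 and Ccnb2 differed by -0.10 and -0.06, and Foxm1, the transcription factor that activates many of these genes, by -0.17 (SE 0.35). In all, 23 of 24 mitotic genes were lower in Brg1 cKO, with a median log2 difference of -0.17 that turned to 0.020 without Brg1 cKO replicate 2.

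**Figure D2:**
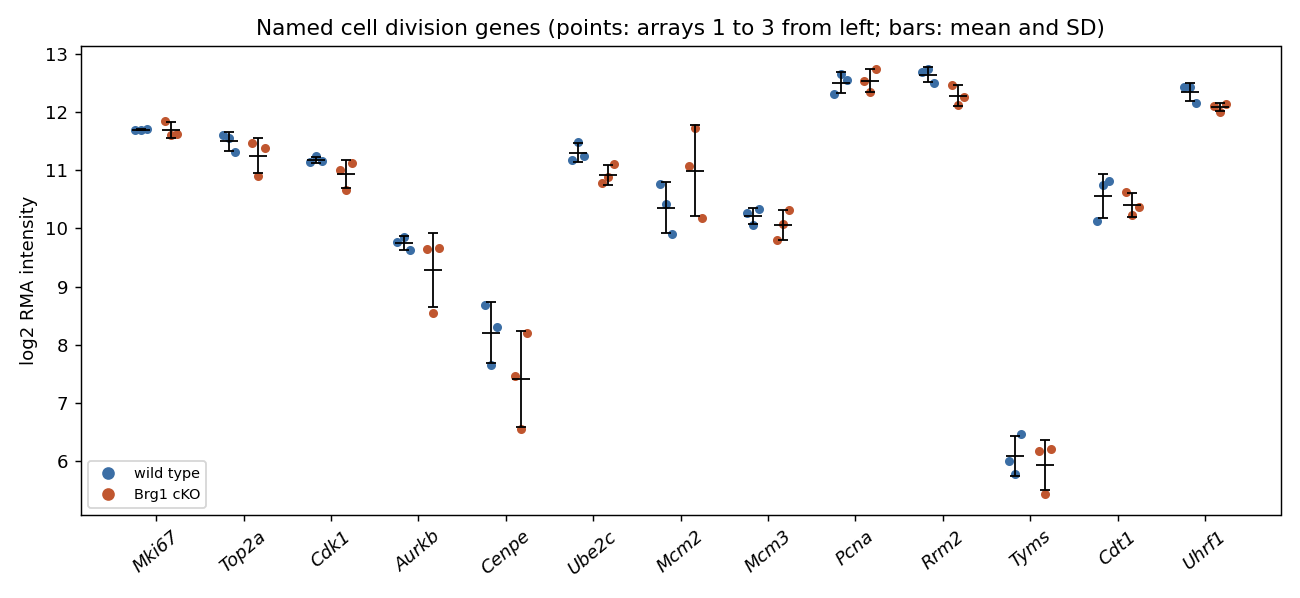
Log2 RMA intensity (y axis) of the 13 cell division genes described array by array, with 1 point per array, replicates 1 to 3 from left to right in each group, and bars that give mean and SD over 3 arrays. The low Brg1 cKO point of Aurkb is replicate 2, at 8.55, and the Brg1 cKO points of Mcm2 span 10.17 to 11.72.

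Of the S-phase genes, Pcna, the sliding clamp of the replication polymerases, read 12.31, 12.65 and 12.56 in the wild-type arrays and 12.53, 12.35 and 12.73 in the Brg1 cKO arrays. The groups overlapped over nearly their whole range. The log2 difference was 0.03 (SE 0.19, 95% interval -0.41 to 0.47, limma adjusted p = 0.978).

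Rrm2, the small subunit of ribonucleotide reductase, which makes deoxynucleotides and limits their supply in S phase, had the lowest p of the S-phase genes. It read 12.69, 12.74 and 12.50 in the wild-type arrays and 12.47, 12.12 and 12.26 in the Brg1 cKO arrays. The groups did not overlap, by a narrow gap between wild-type replicate 3 and Brg1 cKO replicate 1. The log2 difference of -0.36 (SE 0.18, 95% interval -0.78 to 0.05) is a level 1.29-fold higher in wild type, with a limma adjusted p of 0.668.

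Mcm2, a subunit of the replicative helicase, gave the only S-phase difference past 1.5-fold, and its probe sets gave different values. The brighter set read 10.76, 10.41 and 9.90 in the wild-type arrays and 11.07, 11.72 and 10.17 in the Brg1 cKO arrays, so that the groups overlapped and the log2 difference was 0.63 (SE 0.41, limma adjusted p = 0.764). The other set read 9.23, 9.31 and 9.17 in the wild-type arrays and 9.29, 9.18 and 9.33 in the Brg1 cKO arrays, a log2 difference of 0.03 (SE 0.16). The difference of the brighter set was 0.27 without Brg1 cKO replicate 2 and 1.04 without replicate 3. By its name the brighter set is of a type whose probes can match other transcripts, as for 7 of the 39 genes, among them Aurkb, Mcm3 and Rrm2, and the other Mcm2 set is not.

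The remaining helicase subunits stayed near 0. Mcm3 read 10.26, 10.06 and 10.33 in the wild-type arrays and 9.79, 10.07 and 10.31 in the Brg1 cKO arrays, a log2 difference of -0.16 (SE 0.20), with replicate 1 as the low array. Mcm4, Mcm5, Mcm6 and Mcm7 differed by -0.09, -0.03, -0.03 and -0.04, and Rrm1, the large subunit of ribonucleotide reductase, by -0.12. Of the 9 S-phase genes 7 were lower in Brg1 cKO, with a median log2 difference of -0.04.

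The other 6 G1/S genes had a median log2 difference of -0.12, with 4 of 6 lower in Brg1 cKO. Uhrf1, which keeps DNA methylation through replication, read 12.43, 12.43 and 12.16 in the wild-type arrays and 12.10, 12.00 and 12.13 in the Brg1 cKO arrays. The gap between the groups was again narrow, with a log2 difference of -0.26 (SE 0.17, 95% interval -0.65 to 0.13, limma adjusted p = 0.762). Cdt1, which loads the helicase on origins, read 10.13, 10.74 and 10.81 in the wild-type arrays and 10.63, 10.22 and 10.36 in the Brg1 cKO arrays and differed by -0.16 (SE 0.24). Tyms, thymidylate synthase, read 6.01, 5.79 and 6.46 in the wild-type arrays and 6.17, 5.45 and 6.21 in the Brg1 cKO arrays and differed by -0.14 (SE 0.28). The groups of Cdt1 and of Tyms overlapped. Cdc6, another loading factor, and the cyclins Ccne1 and Ccne2, which drive entry into S phase, differed by 0.04, 0.10 and -0.10.

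Many of these genes have further probe sets, which gave a check on the brightest ones. There were 73 probe sets for the 39 genes, and 21 genes had more than 1. Of the 34 other probe sets, 27 had the sign of the brightest set of their gene, and 5 had a mean below log2 4.84, the 25th percentile of all values. None of the 73 had an adjusted p under 0.05, and 2 had an unadjusted limma p under 0.05. A dimmer set of Kif11, the kinesin that separates the spindle poles, read 7.33, 6.75 and 6.94 in the wild-type arrays and 5.69, 5.03 and 6.84 in the Brg1 cKO arrays. Its log2 difference was -1.15 (SE 0.44, limma adjusted p = 0.529), against -0.22 in the brightest set, and Brg1 cKO replicate 3 lay within the wild-type range. The other set of Mcm4 read 11.27, 11.19 and 10.76 in the wild-type arrays and 10.61, 10.66 and 10.35 in the Brg1 cKO arrays, a log2 difference of -0.53 (SE 0.20, limma adjusted p = 0.542), against -0.09 in the brightest. Its groups did not overlap, and by its name it is of the type with shared probes, unlike the brightest set of Mcm4. The dimmer sets of Rrm2 differed by -0.88 (SE 0.66) and -0.37 (SE 0.35), with the sign of the brightest, and are not of the type with shared probes. The brighter of these read 9.91, 10.60 and 9.15 in the wild-type arrays and 8.85, 7.76 and 10.40 in the Brg1 cKO arrays, and unlike in the brightest set its groups overlapped.

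**Figure D3:**
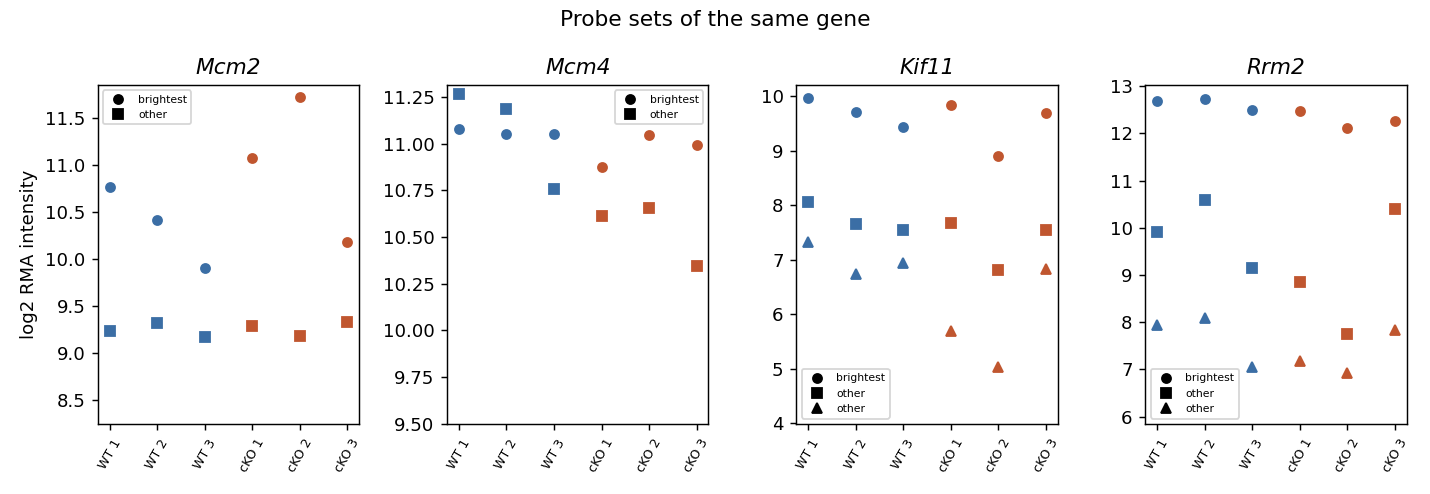
Log2 RMA intensity (y axis) in each of the 6 arrays (x axis) for every probe set that names Mcm2, Mcm4, Kif11 or Rrm2 alone, with wild type in blue, Brg1 cKO in orange and 1 marker shape per probe set. The 2 Mcm2 sets part in Brg1 cKO replicate 2, at 11.72 and 9.18.

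The S-phase and mitotic genes were compared within each array through their shifts. The shift of a list in an array is the median, over its genes, of the log2 distance from the average of the wild-type arrays. A wild-type array was itself left out of that average, which widens the wild-type shifts. Brg1 cKO shifts were taken from the average of all wild-type arrays, so the spreads of the groups are not on the same scale. The mitotic shift was 0.20, 0.20 and -0.34 in the wild-type arrays and 0.13, -0.50 and -0.10 in the Brg1 cKO arrays. The S-phase shift was 0.02, 0.14 and -0.14 in the wild-type arrays and 0.03, -0.15 and -0.07 in the Brg1 cKO arrays, a smaller range in the same order of low and high arrays within the Brg1 cKO group. In both lists the Brg1 cKO arrays overlapped with the wild-type arrays.

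S-phase minus mitotic shift was -0.17, -0.06 and 0.20 in the wild-type arrays and -0.10, 0.35 and 0.03 in the Brg1 cKO arrays. The arrays with the lowest mitotic shift, wild-type replicate 3 and Brg1 cKO replicate 2, were those where the S-phase genes stood highest relative to the mitotic genes. The mitotic shift is subtracted here and ranged more widely than the S-phase shift, so this order follows largely from the mitotic values. Between genotypes, the S-phase median exceeded the mitotic median by 0.13 on the log2 scale, a value that turned to -0.0061 without Brg1 cKO replicate 2. The values of the Brg1 cKO arrays overlapped with those of the wild-type arrays.

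**Figure D4:**
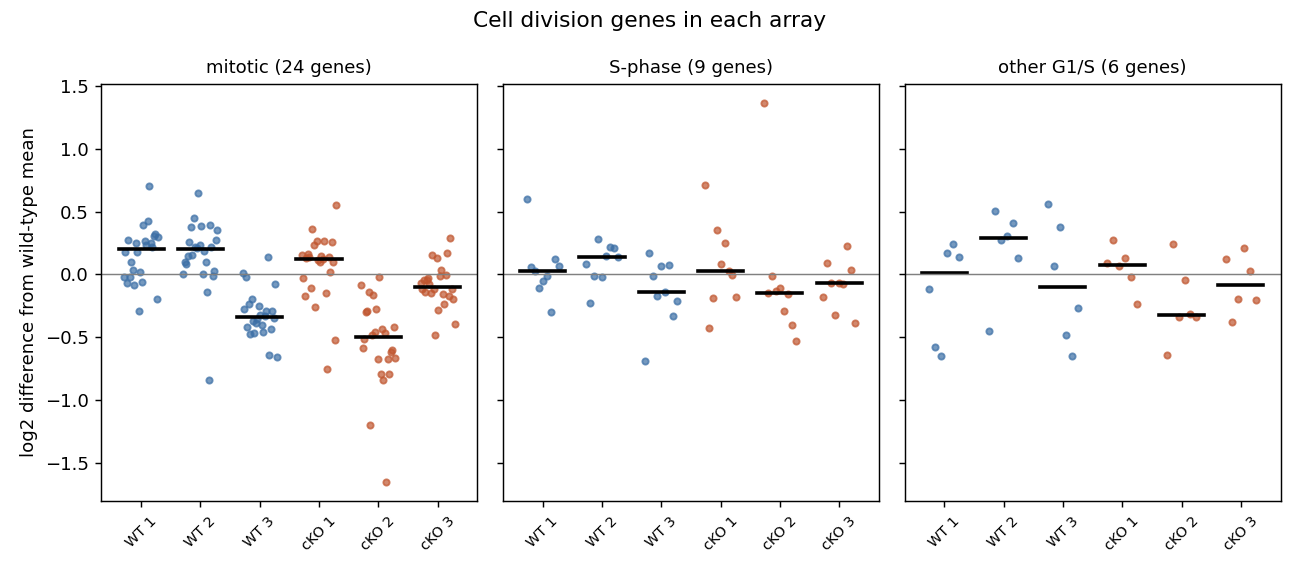
Log2 difference from the wild-type mean (y axis) of each mitotic, S-phase and other G1/S gene in each array (x axis), with 1 point per gene and a black bar for the shift, the median in that array. A wild-type array was left out of its own reference, which widens the distances in that group. The mitotic bars of wild-type replicate 3, at -0.34, and Brg1 cKO replicate 2, at -0.50, lie lowest.

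The mitotic genes moved together from array to array. Brg1 cKO replicate 2 was the lowest of its group for 21 of 24 mitotic genes, against 37.3% of all genes, and the lowest of all 6 arrays for 19 of 24, against 25.5%. Wild-type replicate 3 was the lowest of its group for 20 of 24, against 30.8% of all genes. For the 9 S-phase genes, Brg1 cKO replicate 2 was the lowest of its group for 5 and of all arrays for 4, and wild-type replicate 3 the lowest of its group for 6. Of the 39 genes, 29 had the larger SD in Brg1 cKO, with median SDs of 0.22 in wild type and 0.26 in Brg1 cKO, while over all genes the medians were 0.21 and 0.29 and 66.8% had the larger SD in Brg1 cKO.

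Markers of another tissue and of RNA quality were read in the same arrays. The shift of 14 measured of 15 listed skeletal muscle genes, which mark the eye muscles left on a dissected eyeball, was -0.31, -0.47 and 0.74 in the wild-type arrays and -0.52, 0.97 and 0.53 in the Brg1 cKO arrays, high in the arrays where the mitotic genes were low. The summed intensity of these genes ranged from 38900 to 63100 in wild type and from 32160 to 76500 in Brg1 cKO, and none of the 14 had a mean under log2 4.84. The log2 difference between the 3′ and 5′ probe sets of actin, a sign of RNA quality, was 1.12, 1.01 and 0.93 in the wild-type arrays and 1.28, 1.34 and 0.98 in the Brg1 cKO arrays. It was lowest in wild-type replicate 3 and highest in Brg1 cKO replicate 2, the arrays with the low mitotic shifts. The part of muscle content and RNA quality in the mitotic shifts was not tested. With both of these arrays left out, the median difference of the mitotic genes was -0.12.

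Genes outside the list, from the same pathways, were read in the same way. Of 42 other genes of the kinetochore, the spindle, chromosome condensation and cytokinesis, 0 passed the threshold of limma and 0 had an unadjusted p under 0.05. Their median log2 difference was -0.10, and 32 of 42 were lower in Brg1 cKO. Their shift was 0.05, 0.22 and -0.24 in the wild-type arrays and 0.11, -0.41 and -0.13 in the Brg1 cKO arrays, lowest in the arrays that were lowest for the mitotic genes of the list. The smallest p-values were those of Cenph (log2 difference -0.71, SE 0.33, limma adjusted p = 0.639) and Cenpm (-0.36, SE 0.17, limma adjusted p = 0.66), subunits of the inner kinetochore.

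Of 40 other genes of the replication fork, origin loading and nucleotide supply, 0 passed the threshold and 0 had an unadjusted limma p under 0.05. Their median log2 difference was -0.09, and 28 of 40 were lower. Their shift was -0.07, 0.16 and -0.10 in the wild-type arrays and 0.11, -0.22 and -0.08 in the Brg1 cKO arrays. In wild type, replicate 1 was the lowest array for 19 of the 40 and replicate 3 for 17. Gins1, a subunit of the active helicase, differed by -0.34 (SE 0.18, limma adjusted p = 0.705), and Gmnn, the inhibitor of Cdt1, by -0.33 (SE 0.22, limma adjusted p = 0.764).

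The regulators upstream, 21 genes of the E2F, Rb and DREAM families and their partners, had a median log2 difference of -0.14, with 0 past the threshold and 1 at an unadjusted limma p under 0.05. Their shift was 0.18, 0.07 and -0.21 in the wild-type arrays and -0.07, -0.25 and 0.01 in the Brg1 cKO arrays, highest in replicate 3 of that group, unlike the mitotic shift. The gene with the low p was Cdc25a, the phosphatase that activates Cdk2 at the entry to S phase. It read 8.88, 8.70 and 8.49 in the wild-type arrays and 9.63, 9.74 and 8.99 in the Brg1 cKO arrays. Every Brg1 cKO value was above every wild-type value, the opposite direction to most cell division genes, and the log2 difference was 0.76 (SE 0.25, 95% interval 0.19 to 1.34, limma adjusted p = 0.428). Rbl1, the Rb relative p107, read 9.91, 10.21 and 10.10 in the wild-type arrays and 9.65, 9.12 and 9.98 in the Brg1 cKO arrays, so that its groups overlapped, with a log2 difference of -0.49 (SE 0.25, limma adjusted p = 0.677).

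Markers of the cells that divide in a newborn eye were read beside these values. Of 12 measured of 15 listed genes of retinal progenitors, 0 passed the threshold of limma and 1 had an unadjusted p under 0.05, Fgf15, a growth factor of progenitors, with a log2 difference of -0.54 (SE 0.22, limma adjusted p = 0.582). The median log2 difference of the 12 was -0.10 and the shift was 0.04, 0.09 and -0.10 in the wild-type arrays and 0.33, -0.21 and -0.12 in the Brg1 cKO arrays, with the order of the mitotic shifts in the Brg1 cKO group. Ccnd1, the D-type cyclin of retinal progenitors, read 13.49, 13.46 and 13.41 in the wild-type arrays and 13.64, 13.35 and 13.45 in the Brg1 cKO arrays, and its groups overlapped. The summed intensity of the 12 genes ranged from 28660 to 30960 in wild type and from 26220 to 34710 in Brg1 cKO, and none had a mean under log2 4.84. The part of progenitor content in the cell division values was not tested.

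Markers of lens fibers, a tissue that the Cre does reach, and of myeloid cells had larger median differences than the cell division genes. The 11 measured of 15 listed genes of lens fibers, which have left the cell cycle, had a median log2 difference of -2.79. Of the 11, 1 passed the threshold and 10 had an unadjusted limma p under 0.05, all lower in Brg1 cKO. Over all probe sets, 8.4% had such a p in either direction. The lens fiber shifts were -2.94, -1.14 and -3.43 in the Brg1 cKO arrays. The summed intensity of the 11 genes ranged from 107300 to 118200 in wild type and from 18990 to 66360 in Brg1 cKO. Brg1 cKO replicate 2 had the highest lens fiber shift of its group and the lowest mitotic shift. For 7 genes of the lens epithelium, the dividing layer of the lens, the median was -0.19, with 0 past the threshold of limma and 3 at an unadjusted p under 0.05. Of these 7 genes, 6 had a lower and 1 a higher mean in Brg1 cKO. Sfrp1 and Cdh1, with the smallest p, differed by -0.96 (SE 0.19) and -1.06 (SE 0.39). The summed intensity of the 7 ranged from 8254 to 9315 in wild type and from 5629 to 6411 in Brg1 cKO. For 9 genes of the basal surface epithelium the median was -0.43, with 1 past the threshold, Krt12, which was lower. Those 9 genes differed both ways, with 3 higher and 6 lower means in Brg1 cKO, of which 2 and 3 had an unadjusted limma p under 0.05. The 13 myeloid genes had a median of 1.66, with Cd14, S100a8 and S100a9 past the threshold. Of the 13, 12 had an unadjusted limma p under 0.05, all higher in Brg1 cKO. The myeloid shifts were 1.14, 2.57 and 1.37 in the Brg1 cKO arrays, highest in replicate 2. The summed intensity of the 13 genes ranged from 2964 to 3977 in wild type and from 12720 to 36450 in Brg1 cKO. Photoreceptor precursor, ganglion and amacrine, and erythroid lists had medians of 0.22, -0.02 and -0.09, with 0 genes past the threshold of limma. In these lists 1 gene had an unadjusted limma p under 0.05, Tfap2b of the amacrine genes. Of the 9 erythroid genes measured, 5 had a mean under log2 4.84, so that list was read largely near the low end. The ganglion and amacrine shifts were 0.06, 0.09 and 0.01 in the wild-type arrays and 0.32, -0.59 and 0.17 in the Brg1 cKO arrays, and the photoreceptor precursor shifts -0.16, 0.13 and 0.15 and 0.71, -0.32 and 0.21. Both lists, of cells that have left the cell cycle, were lowest in Brg1 cKO replicate 2, as the mitotic genes were. Within wild type, replicate 3 had the lowest ganglion and amacrine shift, at 0.01, and the highest photoreceptor precursor shift, at 0.15. The part of these cell types in the cell division values was not tested.

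**Figure D5:**
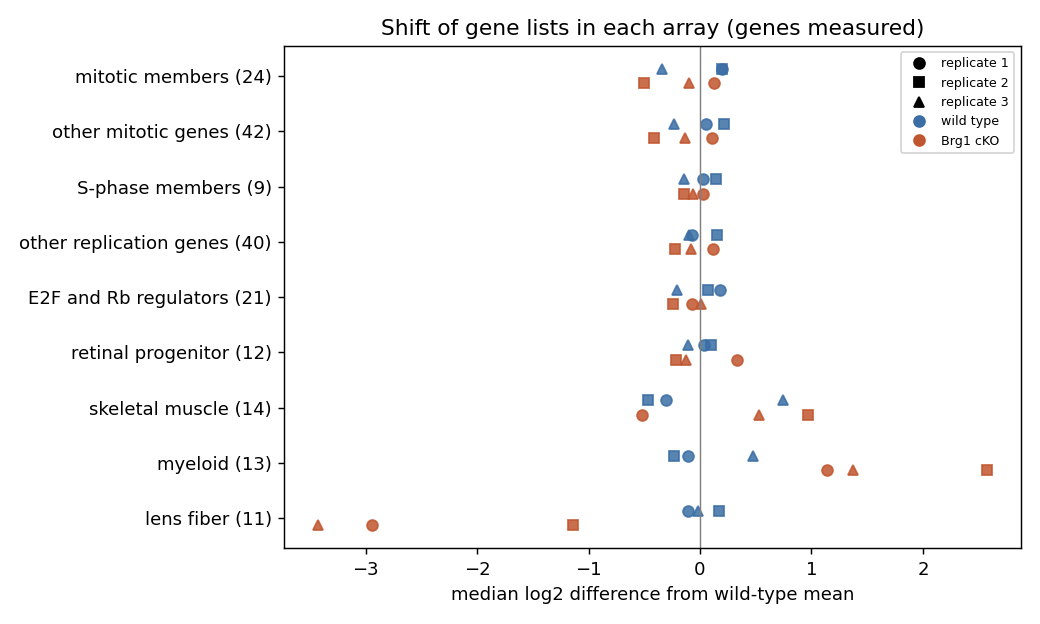
Shift of each gene list (x axis, median log2 difference from the wild-type mean) in each of the 6 arrays, with the number of genes measured in parentheses, colour for genotype and marker shape for replicate. The mitotic, S-phase, replication and regulator lists stay between -0.50 and 0.22, while the lens fiber shifts reach -3.43 and the myeloid shifts 2.57.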

How the data were processed

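RNA of 6 eyeballs at postnatal day 1 was measured, 3 Brg1 cKO and 3 wild type, with 1 Affymetrix mouse array each. The labels gave each array its group and replicate number, and the study describes individual eyeballs with wild-type littermates. Per the labels, 50 ng of total RNA was amplified with the NuGEN Ovation system. The authors processed the arrays with RMA (robust multichip average), and the deposited values are linear intensities, which were converted to log2 here. The RMA version was not given in the sources used here. RMA equalises arrays and so compresses global differences, and amplification from little RNA adds noise.

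The table held 22690 rows, of which 64 array controls were left out. Probe sets were named from the platform annotation, with 1 gene for 20380, several for 691 and no name for 1555, and the 39 measured genes were all found under the same symbol in the RefSeq gene table of GRCm38.p6. Limma 3.58.1 in R 4.3.3 was fitted to the 22626 probe sets with genotype as the only term and two-sided tests, and p-values were adjusted by Benjamini-Hochberg over all of them. Standard errors and 95% intervals are those of this model, and folds are powers of 2 of the log2 differences. The fit was tested on simulated data. No detection calls were used, and log2 4.84, the 25th percentile of all values, was read as the low end. Lists are described by counts and medians, with no set test.

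The members, the lists and the tests were chosen with earlier results of these data known. Values per array are given for the 3 genes with the smallest p in each of the mitotic, S-phase and other G1/S groups and for Mki67, Top2a, Cdk1, Pcna, Mcm2 and Rrm2. From the 3 pathway and 9 cell type lists, genes past the threshold and otherwise the 2 with the smallest p could be named. Ccnd1 and the dimmer sets of Kif11 and Mcm4 were singled out after their values were seen. Promoter words were searched with Python 3.11.15 and pandas 2.3.3 in 32851 RefSeq windows of 27025 genes, where a gene counted once if any of its windows matched. Alternatives were a block for the replicate number, leaving out each array, median centring, quantile normalization, a filter at the low end, an offset of 32, a variance trend, array weights, the mean of all probe sets of a gene, a broader S-phase group, means for medians and template matching.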

Additional observations from a re-analysis of the deposited data

How the results depend on the processing

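No cell division gene passed the adjusted threshold in any fit run. The smallest adjusted p of the genes with values per array was 0.309, for Mcm2 without Brg1 cKO replicate 3. The counts of the 3 pathway lists past the adjusted threshold stayed at 0. Leaving out single arrays gave 24 to 216 probe sets past the threshold in place of 115: 24, 26 and 36 with a wild-type array left out (replicate 1, 2 or 3) and for Brg1 cKO 216 (replicate 2) and 53 (replicate 3). It gave 0 to 2 cell division genes at an unadjusted p under 0.05, with or without the fold (Cenpe and Mcm2, without Brg1 cKO replicate 3), and 6 to 13 genes whose groups did not overlap (13 without wild-type replicate 3, 10 without Brg1 cKO replicate 1). Groups of fewer arrays fail to overlap more easily, and the share of all genes was not computed there. A higher count in such a setting is therefore not a sign of more separation. Medians ranged from -0.25 to 0.009 for all the genes, -0.092 to 0.014 for S-phase and -0.30 to 0.020 for mitotic genes, and S-phase minus mitotic from -0.0061 to 0.21, and each turned without Brg1 cKO replicate 2. A replicate block gave 45 probe sets past the threshold and 1 cell division gene at an unadjusted p under 0.05, with or without the fold (Cenpe). Deviations of same-numbered arrays correlated by 0.06, 0.08 and 0.13, and no array correlated best with its own number, so the numbers were not taken as a pairing. An offset of 32 gave 16 probe sets past the threshold and 3 genes at an unadjusted p under 0.05 (Ube2c, Rrm2 and Uhrf1), a variance trend 2 (Ube2c and Rrm2), and array weights 190 probe sets past the threshold. Higher against lower calls were 69 to 46, and 103 to 113 without Brg1 cKO replicate 2, 75 to 61 after median centring, 34 to 11 with the block and 114 to 26 without Brg1 cKO replicate 1. Groups that did not overlap numbered 2 after quantile normalization and 3 for the mean of probe sets. A further 2 alternatives were chosen after seeing the data. Without probe sets of shared probes, 38 genes were measured and 32 were lower. Without wild-type replicate 3 and Brg1 cKO replicate 2 together, 15 genes had groups that did not overlap, a count with the same limit of fewer arrays. Of the genes with values per array, 6 turned sign under some setting. With single arrays left out, Pcna ranged from -0.066 to 0.13, Mki67 from -0.077 to 0.042 and Tyms from -0.29 to 0.11. Pcna was at -0.013 after median centring. Mki67 was at 0.034 after quantile normalization, at 0.0044 with weights and at 0.046 without both arrays, where Tyms was at 0.29 and Cdt1 at 0.059. Top2a was at 0.0019 for the mean of probe sets and Mcm3 at 0.068 without shared probes. The cause was not tested.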
